A study of Mus musculus with 31 samples.

Results

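Of the 23509 rows counted in each kidney library, 10 were named only by a UCSC transcript identifier, uc followed by digits, in place of a gene symbol. These rows were chosen by that form of name, and 4 of them, uc009vey.1, uc009vfc.1, uc009vew.1 and uc009vfb.1, were put forward with their abundance and their change across the groups already known. Their levels and group differences are therefore given as a description, with no p-value for a row; counts of rows that passed a threshold stand beside the share of all rows that did, and the 2 permutation tests of the share compare index series inside a treatment group. Together the 10 rows took 7.69% of the row counts in wild-type kidney, 5.03% in cystic kidney given PBS and 6.79% in cystic kidney given RGLS4326. The rows differed widely in abundance: 5 were among the 13 most counted rows of the kidney, and the other 5 ranked between 875 and 14049.

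Kidney poly(A) RNA was sequenced from 31 mice. The cystic mice were Pcy/CD1, a slowly progressing polycystic kidney line on the CD1 background that carries the pcy mutation; 12 of them received PBS and 14 received RGLS4326, a short chemically modified oligonucleotide that binds miR-17, subcutaneously at 25 mg/kg every month. Dosing ran from 5 to 30 weeks of age, when all mice were killed. The comparison group was 5 untreated male wild-type mice of the CD1 strain, which were age-matched and lacked both the mutation and the injections, so that disease and injection cannot be told apart between wild type and PBS. The PBS schedule is given as weekly in one label and as monthly in the study's design. The study describes the Pcy/CD1 mice as male too.

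The mitochondrial genome encodes ribosomal RNAs, transfer RNAs and core subunits of respiratory chain complexes I, III, IV and V, and all remaining subunits come from nuclear genes. Its transcripts are made as long precursors by a single-subunit polymerase, are cut and polyadenylated inside the organelle, and are abundant in poly(A) libraries of tissues rich in mitochondria. The kidney is such a tissue, above all the proximal tubule, whose transport of solutes is paid for by oxidative phosphorylation.

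The 8 rows that start with uc009v are likely transcripts of the mitochondrial genome, and this is given as likely only. The files give neither position nor sequence for these rows, and the reference tables used here matched 0 of the 10 identifiers. The names in the files bear on the question indirectly. Of 37 genes on the mitochondrial chromosome in GENCODE vM21, namely 13 protein-coding genes, 22 transfer RNAs and 2 ribosomal RNAs, 0 had a row under their own name. For protein-coding genes alone, 0 of the 13 had a row, whereas 19539 of 21979 nuclear protein-coding genes (88.9%) had one. Nuclear genes of transfer and ribosomal RNAs were not counted for comparison. What the 2 remaining rows, uc012hdk.1 and uc012hdm.1, stand for is not given in the sources used here. No lengths were held for the rows, so values are shares of reads, and 2 rows with different values are not thereby ranked as transcript levels.

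Row counts totalled 14892524 to 27459962 per library, so the abundant rows were read deeply. Each library held 287870 or more reads of uc009vey.1, whereas uc012hdk.1 rested on 4 to 72 reads, uc009vfa.1 on 5 to 38 and uc009vez.1 on 11 to 43. Sheet numbers in the library names restart within each group and divide the mice into 3 index series, of 4, 4 and 4 mice with PBS, 4, 5 and 5 with RGLS4326 and 2, 2 and 1 in wild type; what the series mark is not stated. The sizes published for these groups equal those of the first series, and all 31 mice are used here. RGLS4326-treated mouse 9 stood apart from its group. Its kidney read 2.76 CPM of Lcn2, a secreted marker of tubular injury, where the other 13 mice of its group read 126 CPM or more and wild type 0.944 to 11.2 CPM. It read 76.6 CPM of Pvalb, the calcium-binding parvalbumin of the distal tubule, where the others read 3.82 to 9.57 CPM and wild type 50.2 to 74.7 CPM. Where it moves a value, the value without it is given beside it or in the last paragraph.

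In wild-type mice 1 to 5, the 10 rows took 7.29%, 7.37%, 7.53%, 8.25% and 8.03% of the row counts. With PBS, the share ran from 3.43% over a median of 5.15% to 6.71%, and all 12 mice lay below every wild-type mouse. With RGLS4326, it ran from 5.36% over a median of 6.90% to 7.74%. Of these 14 mice, 9 lay above every PBS-treated mouse and 9 lay below every wild-type mouse.

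As mean ± SD, the share was 7.69% ± 0.425 (n = 5 wild-type mice), 5.03% ± 0.988 (n = 12 PBS-treated mice) and 6.79% ± 0.759 (n = 14 RGLS4326-treated mice). PBS minus wild type was −2.66 percentage points, and RGLS4326 read 1.75 points above PBS, or 1.70 points without RGLS4326-treated mouse 9. Both comparisons share the PBS-treated mice. Within the index series, PBS differed from wild type by −2.20, −2.81 and −3.14 points, with no overlap in any series, though the third series holds 1 wild-type mouse. RGLS4326 differed from PBS by 1.52, 1.999 and 1.71 points, and the groups were apart only in the second series.

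**Figure D1:**
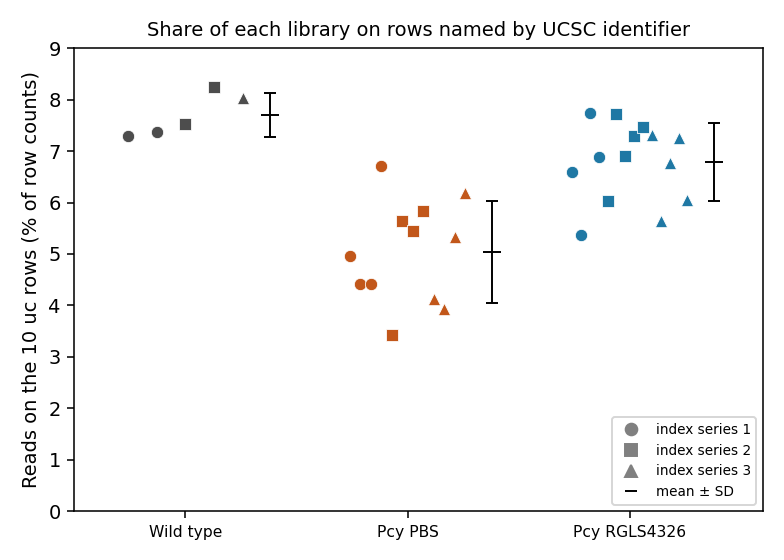
Percent of row counts on the 10 rows named by UCSC identifier (vertical axis, starting at 0) in each of 31 mice by group, with marker shapes for the 3 index series and the mean ± SD at the right of each group. The 12 PBS-treated mice, from 3.43% to 6.71%, sit below the 5 wild-type mice, from 7.29% to 8.25%, and the 14 RGLS4326-treated mice, from 5.36% to 7.74%, overlap with both.

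Inside a treatment group, no difference in the share between index series was detected. Across the series the F ratio had p = 0.944 with PBS (n = 12) and p = 0.579 with RGLS4326 (n = 14) in two-sided exact permutation tests of mice over 34650 and 252252 arrangements, and both were 0.944 after Benjamini-Hochberg adjustment over the 2 tests. The mean share with PBS was 5.13%, 5.08% and 4.89% in the 3 series. With RGLS4326 it was 6.65%, 7.08% and 6.60%. A p above the threshold does not show that the series read alike.

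The most counted of these rows was uc009vey.1, at rank 2 among all rows in each group, behind Kap, the androgen-regulated kidney protein of mice. Values below are CPM, the usual counts relative to the library total, with totals scaled by edgeR's trimmed mean of M values (TMM). In wild-type mice 1 to 5, uc009vey.1 read 33977 CPM, 35214 CPM, 33310.1 CPM, 35914 CPM and 36581 CPM. It ran from 12206 CPM over a median of 19345 to 27619 CPM with PBS, and from 19884 CPM over a median of 27250.4 to 33908 CPM with RGLS4326. All PBS-treated mice lay below all wild-type mice, and the RGLS4326-treated mice overlapped with both groups. The log2 fold change was −0.89 (SE 0.154) for PBS against wild type and 0.54 (SE 0.119) for RGLS4326 against PBS.

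Row uc009vfc.1 was at rank 3 in each group and followed the same order of group means. The wild-type mice read 31257 CPM, 28879.9 CPM, 30939 CPM, 33153 CPM and 29275 CPM. The range was 9786 to 22776 CPM with PBS, around a median of 17033, and 16248 to 29221 CPM with RGLS4326, around a median of 22479. PBS-treated mice again fell outside the wild-type range on the low side. Only RGLS4326-treated mouse 9, at 29221 CPM, reached it, and the next highest mouse of its group read 27322.5 CPM. Its log2 fold change was −0.93 (SE 0.153) for PBS against wild type and 0.51 (SE 0.118) for RGLS4326 against PBS.

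Row uc009vew.1 was at rank 5 in each group, just after Gpx3, a glutathione peroxidase that the kidney secretes into plasma. Its wild-type values were 10580.1 CPM, 11173 CPM, 10901 CPM, 13619 CPM and 13636 CPM. It read 3789 to 7411 CPM with PBS (median 5161) and 5704 to 9914 CPM with RGLS4326 (median 7405), so that on TMM in neither Pcy/CD1 group did a mouse reach the wild-type range. As a share of plain row counts, RGLS4326 and wild type overlapped. RGLS4326-treated mouse 3 held 250620 of 27459962 counts on this row, a larger share than the 179384 of 20733811 in wild-type mouse 1. Its difference between PBS and wild type was larger than that of the rows before it, with a log2 fold change of −1.21 (SE 0.137), and the value for RGLS4326 against PBS was 0.59 (SE 0.107).

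The last of the listed rows, uc009vfb.1, was at rank 7 on the mean share of all mice, just after Acsm2, an acyl-CoA synthetase for medium-chain fatty acids. The wild-type mice read 7555 CPM, 7184 CPM, 7631 CPM, 8087 CPM and 7302 CPM. With PBS it ran from 3056 CPM over a median of 4211 to 5375 CPM, and with RGLS4326 from 4657 CPM over a median of 5770 to 7345 CPM. PBS and wild type did not overlap, whereas RGLS4326-treated mouse 9, at 7345 CPM, entered the lower end of the wild-type range. The next highest mouse of its group read 6534 CPM, below that range. For this row the log2 fold change was −0.88 (SE 0.118) for PBS against wild type and 0.50 (SE 0.0909) for RGLS4326 against PBS.

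Among the rows that were not listed, uc009vex.2 was nearly as abundant, at rank 13. It read 5364 CPM, 6097 CPM, 5658 CPM, 6990 CPM and 6674 CPM in wild type, 1496 to 3514 CPM with PBS (median 2611) and 2770 to 4976 CPM with RGLS4326 (median 3844). Like uc009vew.1, it left both Pcy/CD1 groups below every wild-type mouse on TMM, whereas RGLS4326 and wild type overlapped as a share of plain row counts. RGLS4326-treated mouse 3 held 127329 of 27459962 counts on it, a larger share than the 90945 of 20733811 in wild-type mouse 1. Its log2 fold changes were −1.27 (SE 0.155) and 0.63 (SE 0.121) in the 2 comparisons.

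Row uc009vev.1 was far scarcer than these rows and differed least between the groups. It read 204 CPM, 229 CPM, 229 CPM, 259 CPM and 224 CPM in wild type, 131 to 194 CPM with PBS (median 159) and 169 to 251 CPM with RGLS4326 (median 209). The log2 fold change was −0.54 (SE 0.0868) for PBS against wild type and 0.42 (SE 0.0659) for RGLS4326 against PBS. The RGLS4326-treated mice covered most of the wild-type range, with a log2 fold change of −0.11 (SE 0.0863) between these groups. The 2 scarcest uc009v rows had the same order of means, with 2.03, 0.915 and 1.42 CPM for uc009vez.1 and 1.59, 0.472 and 0.928 CPM for uc009vfa.1 in wild type, PBS and RGLS4326.

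**Figure D2:**
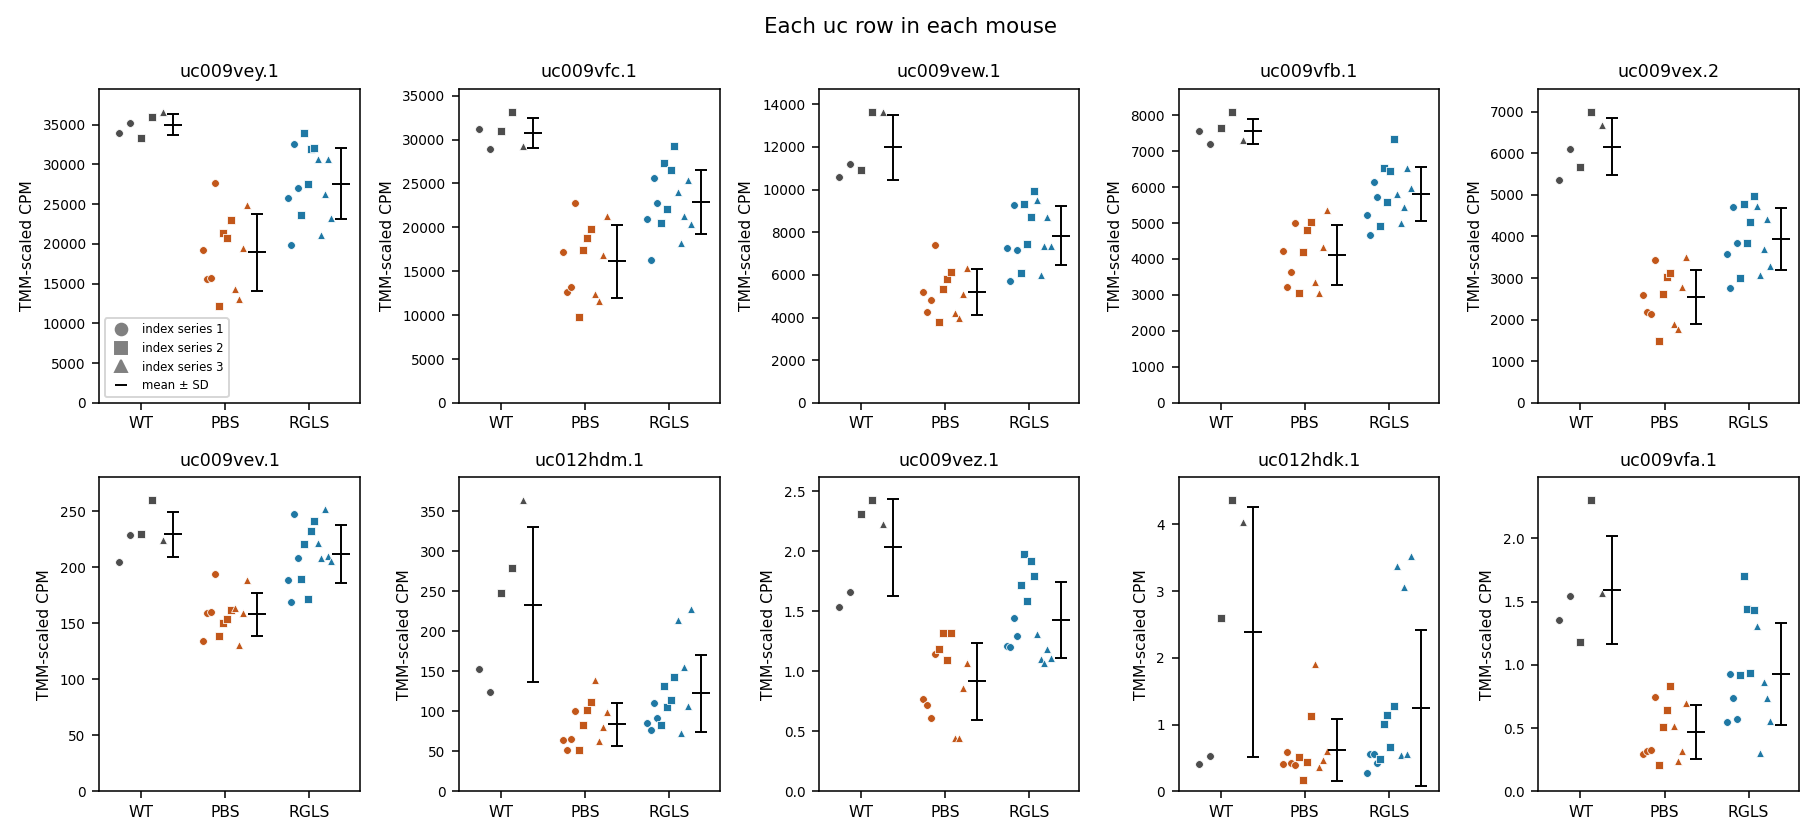
TMM-scaled CPM (vertical axes, each starting at 0 and each with its own scale) of the 10 rows in 31 mice by group, 1 panel per row, with marker shapes for the index series and the mean ± SD at the right of each group. In the 5 abundant rows the PBS-treated mice lie below the wild-type mice; in uc012hdk.1 a few mice, up to 4.36 CPM, stand above all others in their group.

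The 2 uc012h rows had the same order of group means as the uc009v rows. Row uc012hdm.1 read 153 CPM, 124 CPM, 248 CPM, 279 CPM and 364 CPM in wild-type mice 1 to 5, and the first 2 of these mice form the first index series. It read 51.1 to 139 CPM with PBS (median 81.5) and 73.5 to 228 CPM with RGLS4326 (median 109), and all groups overlapped. Its log2 fold changes were −1.48 (SE 0.248) and 0.55 (SE 0.195) in the 2 comparisons.

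Row uc012hdk.1 was scarce and uneven among mice of the same group. The wild-type mice read 0.413 CPM, 0.535 CPM, 2.603 CPM, 4.36 CPM and 4.03 CPM, again low in the 2 mice of the first series. Outside wild type it reached 1.92 CPM in PBS-treated mouse 9 and 3.38 CPM, 3.06 CPM and 3.53 CPM in RGLS4326-treated mice 10, 12 and 14, all of the third series, and it stayed at 1.28 CPM or less in the other 22 Pcy/CD1 mice. The log2 fold change of −1.92 (SE 0.544) for PBS against wild type came to −0.05 in the first series alone, and that of 0.96 (SE 0.444) for RGLS4326 against PBS came to −0.02.

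All 10 rows passed edgeR's filter on low counts and were tested with the other rows, 15185 in all. At an adjusted p under 0.05 in edgeR's quasi-likelihood fit, 10 of 10 were lower in PBS than in wild type, where 36.6% of all rows tested were lower and 37.7% higher. For RGLS4326 against PBS, 8 of 10 were higher, where 9.15% of all rows tested were higher and 6.66% lower, and 7 of 10 also exceeded the study's limit of 0.5 on the log2 scale, where 0.935% did. CPM ranges of PBS and wild type did not overlap for 8 of 10 rows, where 21.9% of all rows were lower without overlap. Ranges of RGLS4326 and PBS overlapped for 10 of 10 rows, and 0.0% of all rows were higher without overlap. For RGLS4326 against wild type, 7 of 10 were lower, where 32.4% of all rows were, and 2 of 10 were lower without overlap, where 9.75% were. Because the rows were chosen with these contrasts known, nothing is read from their counts.

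The median log2 fold change of the 10 rows was −1.18 for PBS against wild type and 0.57 for RGLS4326 against PBS, beside 0.0102 and −0.00428 over all rows tested. Library scaling bears on these sizes. Plain library totals in place of TMM moved the median of all rows to 0.38 and −0.12, and the median of the 10 rows to −0.83 and 0.46. For PBS against wild type, plain totals gave log2 fold changes of −0.54 for uc009vey.1, −0.58 for uc009vfc.1, −0.53 for uc009vfb.1 and −0.18 for uc009vev.1, all more than 1.5 times smaller than on TMM. Each of the 10 rows kept its direction in both comparisons on plain totals, on TMM factors computed without the uc rows and in DESeq2. Relative to the median of all rows, the 10 rows read −1.20 and 0.58 on plain totals against −1.19 and 0.57 on TMM. The TMM factors were 0.818 to 0.854 in wild type and 1.004 to 1.165 with PBS, so part of every fold between these groups is set by the scaling, whereas the shares above are not.

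Against wild type, the mean of the RGLS4326-treated mice was lower in each row. The 8 uc009v rows summed to 91623 ± 4162 CPM in the 5 wild-type mice, 47068 ± 11505 CPM in the 12 PBS-treated mice and 68283 ± 10796 CPM in the 14 RGLS4326-treated mice (mean ± SD). On this sum, PBS stood 48.6% under wild type (percent difference −48.6), RGLS4326 stood 45.1% over PBS and RGLS4326 differed from wild type by −25.5%. These sizes depend on TMM. As a share of row counts, which needs no scaling, the 8 rows gave ratios of 0.655 for PBS to wild type and 1.35 for RGLS4326 to PBS. For RGLS4326 to wild type the ratio was 0.883, from 6.77% and 7.67%. On TMM the sum left no overlap between either Pcy/CD1 group and wild type, while PBS and RGLS4326 overlapped. On the share, RGLS4326 and wild type overlapped too, and 9 of the 14 RGLS4326-treated mice lay below every wild-type mouse. Within the 3 series the ratio of RGLS4326 to PBS was 1.34, 1.54 and 1.46, and the ratio of PBS to wild type was 0.542, 0.514 and 0.481.

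Ratios between rows of the same library do not depend on the scaling. Per 100 reads of uc009vey.1, uc009vfc.1 took 87.8 ± 6.28 reads in wild type, 85.3 ± 3.49 with PBS and 83.2 ± 3.73 with RGLS4326, and uc009vfb.1 took 21.6 ± 1.33, 22.0 ± 1.88 and 21.3 ± 1.997 reads (mean ± SD of 5, 12 and 14 mice). The groups overlapped for both. These 3 rows thus kept close to fixed proportions while their levels differed.

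The proportions of uc009vew.1 and uc009vex.2 differed between wild type and PBS. Row uc009vew.1 took 34.2 reads per 100 of uc009vey.1 in wild type (31.1 to 37.9), 27.8 with PBS (25.0 to 31.04) and 28.4 with RGLS4326 (25.8 to 31.7). Row uc009vex.2 took 17.6 reads in wild type (15.8 to 19.5), 13.5 with PBS (12.3 to 14.5) and 14.2 with RGLS4326 (12.6 to 15.6). PBS lay below wild type without overlap in both ratios, and RGLS4326 did so in that of uc009vex.2, whereas the Pcy/CD1 groups overlapped with each other. Within the series, the ratio of PBS to wild type was 0.891, 0.784 and 0.747 for uc009vew.1 and 0.809, 0.722 and 0.757 for uc009vex.2. The scarce uc009vev.1 had the opposite order, with 0.655 reads in wild type, 0.870 with PBS and 0.779 with RGLS4326, and its groups overlapped.

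**Figure D3:**
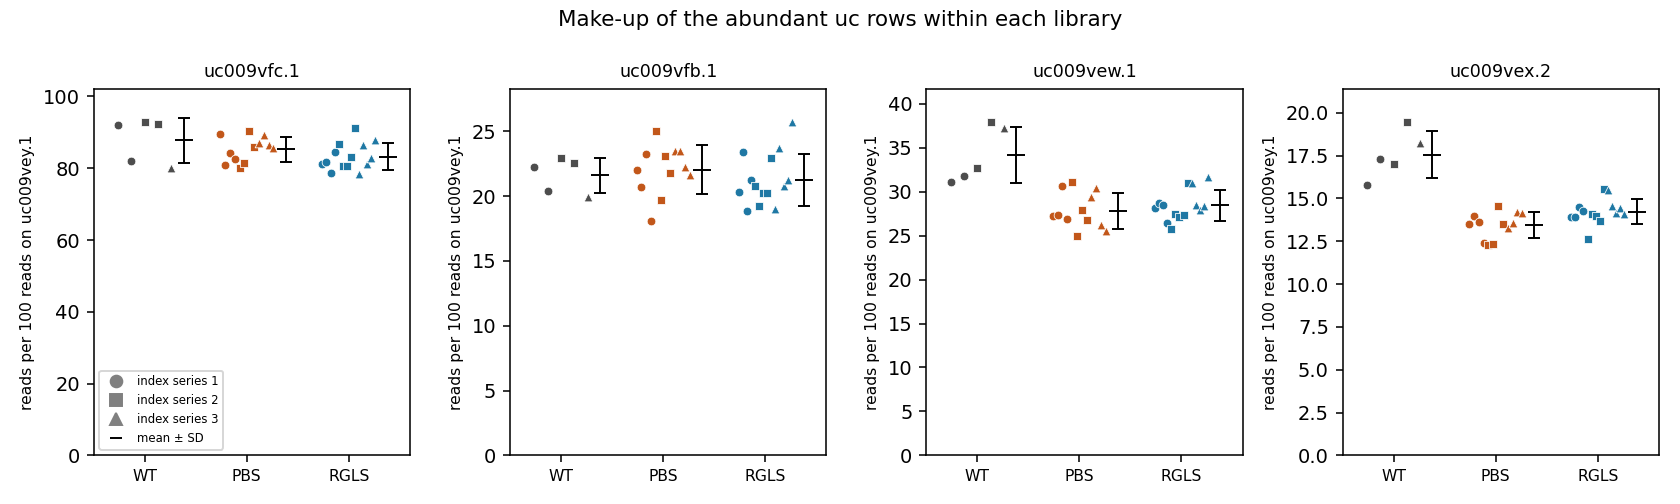
Reads on uc009vfc.1, uc009vfb.1, uc009vew.1 and uc009vex.2 per 100 reads on uc009vey.1 of the same library (vertical axes, each starting at 0) in 31 mice by group, with marker shapes for the index series and the mean ± SD at the right of each group. The groups overlap for uc009vfc.1 and uc009vfb.1, while for uc009vew.1 and uc009vex.2 the 5 wild-type mice lie above the 12 PBS-treated mice.

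The abundant rows also varied together among mice of the same group. After subtraction of group means, Pearson's r of log2(CPM + 1) between the 4 listed rows and uc009vex.2 was 0.89 to 0.97 over 31 mice. Over all 8 uc009v rows it was 0.26 to 0.97, with the scarce rows at the low end. Row uc012hdk.1 correlated with uc012hdm.1 (r of deviations 0.83) but not with uc009vey.1 (0.00). Rows of the same library share its depth and scaling, and these values describe the 31 mice only.

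Rows with a gene symbol also followed the listed ones closely. Over the 31 mice, the rows most like uc009vey.1 were Rnf13, a ubiquitin ligase of endosomal membranes (r = 0.970), Lamp2, a glycoprotein of the lysosomal membrane (0.969), and Tbc1d19 (0.965). Lamp2 and Rnf13 were also nearest to uc009vfc.1 (0.971 and 0.965), followed by the sulfotransferase Sult1d1 (0.964). Nearest to uc009vew.1 were Cmpk1, a nucleoside monophosphate kinase (0.982), Apoo, a subunit of the mitochondrial cristae complex (0.978), and Ube2d3, a ubiquitin-conjugating enzyme (0.977). Nearest to uc009vfb.1 were Tmem126a, a mitochondrial inner membrane protein (0.966), the lysosomal amino acid transporter Slc36a1 (0.962) and Pex13 of the peroxisomal import machinery (0.961). Such likeness was common, since 377 to 678 of 11516 rows reached r = 0.9 or more with a listed row. For uc009vev.1 and uc012hdm.1, 0 rows did.

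Nuclear genes of the respiratory chain were not used to choose the rows and were tested in the same fit. Of 79 nuclear genes listed with the chain, not all of them subunits, 66 were lower and 2 were higher in PBS than in wild type (edgeR's quasi-likelihood test, Benjamini-Hochberg adjusted p under 0.05). Their median log2 fold change was −0.32 beside 0.01 for all rows, whereas on plain library totals 21 were lower, 29 were higher and the median was 0.04. Over all rows tested, 36.6% were lower and 37.7% higher on TMM, and 15.6% lower and 62.6% higher on plain totals. Relative to the median of all rows the list read −0.33 on TMM and −0.34 on plain totals. The 2 higher genes, named here after their values were seen, were Ndufa7 of complex I (log2 fold change 0.27, SE 0.0731) and Cox7a2l, a factor of supercomplex assembly (0.14, SE 0.0593). Fits of 1 index series alone, with fewer mice in both groups, called 50 lower in the first series, 34 in the second and 22 in the third.

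By complex and on TMM, 29 of 37 genes listed by their names with complex I, the NADH dehydrogenase, Ndufa4 included, were lower in PBS. These included Ndufs1, its largest iron-sulfur subunit, at −0.86 (SE 0.119), Ndufa10 at −0.57 (SE 0.0777) and Ndufc2 at −0.47 (SE 0.0643). All 4 subunits of complex II, the succinate dehydrogenase, which holds no mitochondrially encoded subunit, were lower, among them Sdhd at −0.63 (SE 0.0884), Sdhb at −0.59 (SE 0.0958) and Sdhc at −0.49 (SE 0.0731). In complex III 9 of 10 were lower, including the core protein Uqcrc1 at −0.65 (SE 0.0906) and the Rieske protein Uqcrfs1 at −0.60 (SE 0.0903). In complex IV, the cytochrome c oxidase, 10 of the 12 genes listed were lower, with Cox7b at −0.59 (SE 0.108) and Cox5a at −0.34 (SE 0.0714). Cox7b was uneven among the wild-type mice, at 341 ± 117 CPM (mean ± SD), against 226 ± 26.4 CPM with PBS. In complex V, the ATP synthase, 14 of 16 were lower, with Atp5b, the catalytic beta subunit, at −0.73 (SE 0.1001), Atp5f1 at −0.68 (SE 0.0990) and Atp5a1 at −0.66 (SE 0.0934).

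Nuclear genes that keep, transcribe and process the mitochondrial genome were also lower in PBS on TMM, 33 of 43 with 0 higher, a median of −0.31, whereas on plain library totals 15 were lower and 13 higher; at an unadjusted p under 0.05, 1 was higher, and DESeq2 called 0 higher. In the part of the list for RNA processing and decay, 22 of 22 were lower on TMM, where 36.6% of all rows were, against 9 lower and 5 higher on plain totals, where 15.6% and 62.6% of all rows were. Lrpprc, which stabilises mitochondrial messenger RNAs, had a log2 fold change of −0.89 (SE 0.104), Ptcd3, a protein of the mitochondrial small ribosomal subunit, one of −0.83 (SE 0.0876) and the ribonuclease Lactb2 one of −1.51 (SE 0.179). In the part for DNA upkeep and transcription, 11 of 21 were lower on TMM and 6 lower and 8 higher on plain totals, among the 11 Rrm2b, a subunit of ribonucleotide reductase, at −1.13 (SE 0.123), Slc25a33, a pyrimidine nucleotide carrier, at −0.72 (SE 0.0990) and Mterfd1 at −0.62 (SE 0.0719).

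Of 10 regulators of mitochondrial biogenesis, 7 were lower and 2 higher in PBS on TMM, where 36.6% of all rows were lower and 37.7% higher. Ppara, the fatty acid receptor, read −1.50 (SE 0.184), the coactivator Ppargc1b −1.07 (SE 0.125) and Gabpa −0.70 (SE 0.0929). The higher ones, named after their values were seen, were Pprc1 at 0.44 (SE 0.0851) and Nrf1 at 0.21 (SE 0.0625). On plain totals 5 of 10 were lower and 3 were higher, where 15.6% of all rows were lower and 62.6% higher.

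Between RGLS4326 and PBS, nuclear genes of the respiratory chain differed less than the uc009v rows. On TMM 13 of 79 were higher and 0 lower in RGLS4326, with a median log2 fold change of 0.10, whereas on plain library totals 1 was higher, 3 were lower and the median was −0.01. Over all rows tested, 9.15% were higher and 6.66% lower on TMM, and 3.63% higher and 27.2% lower on plain totals, beside 16.5% of the list higher on TMM. At an unadjusted p under 0.05, 36 were higher and 0 lower, and DESeq2 called 19 higher and 0 lower, where it called 12.4% of all rows higher. The count was fragile: it came to 1 without PBS-treated mouse 2, 5, 9 or 10 or RGLS4326-treated mouse 8, to 2 without RGLS4326-treated mouse 9, to between 3 and 6 without PBS 3, 6 or 11 or RGLS4326 3, 6, 10 or 13, to between 20 and 22 without PBS 1 or 12 or RGLS4326 2, and to 25 without PBS-treated mouse 7. In each index series alone, with fewer mice, 0 genes passed. Of the 10 uc rows 0 passed there too, so this 0 is not particular to the list.

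The genes that passed on TMM came from 4 complexes. Ndufc2, Ndufa1 and Ndufc1 of complex I read 0.18 (SE 0.0485, 0.0524 and 0.0546, adjusted p = 0.0202, 0.0276 and 0.0293), with 6 of 37 genes listed with the complex higher. Sdhd read 0.20 (SE 0.0672, adjusted p = 0.0439) and Sdhc 0.16 (SE 0.0553, adjusted p = 0.0451) in complex II. Cycs, the electron carrier cytochrome c listed with complex III, read 0.23 (SE 0.0800, adjusted p = 0.0450). In complex V 4 of 16 were higher, with Atp5f1 at 0.24 (SE 0.0755, adjusted p = 0.0333), Atp5g3 at 0.20 (SE 0.0651, adjusted p = 0.0413) and Atp5c1 at 0.18 (SE 0.0608, adjusted p = 0.0421). In complex IV 0 of 12 passed in edgeR or DESeq2 and 1 had an unadjusted p under 0.05; Cox7a2 read 0.12 (SE 0.0491, adjusted p = 0.0828).

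Of the 43 genes for keeping and expressing the mitochondrial genome, 19 were higher and 0 lower in RGLS4326 on TMM, where 9.15% of all rows were higher, whereas on plain library totals 4 were higher and 5 lower, where 3.63% of all rows were higher and 27.2% lower. At an unadjusted p under 0.05, 24 were higher and 0 lower, and DESeq2 called 22 higher and 0 lower, where it called 12.4% of all rows higher. Among them were the ribonuclease Lactb2 at 0.54 (SE 0.141, adjusted p = 0.0184), Fastkd2, an RNA-binding protein of the mitochondrial matrix, at 0.25 (SE 0.0659, adjusted p = 0.0202), the transcription factor Tfb2m at 0.24 (SE 0.0626, adjusted p = 0.0194), Slc25a33 at 0.28 (SE 0.0756, adjusted p = 0.0215), Mterfd1 at 0.21 (SE 0.0546, adjusted p = 0.0180) and Rexo2, a mitochondrial oligoribonuclease, at 0.13 (SE 0.0335, adjusted p = 0.0171). Of the 10 regulators, only Esrra, an orphan receptor that drives oxidative genes, passed on TMM, at 0.23 (SE 0.0714, adjusted p = 0.0314), and on plain totals 2 of the 10 were lower and 0 higher. DESeq2 called 3 regulators higher and 1 lower. Esrra had an adjusted p of 0.0549 without RGLS4326-treated mouse 9, and 0 regulators passed as higher without any 1 of PBS 2, 3, 5, 9 or 10 or RGLS4326 8, 9 or 13, whereas 2 to 5 did without PBS 4, 7, 8 or 12 or RGLS4326 1, 2, 5, 7 or 11. The count of 19 came to 8 without RGLS4326-treated mouse 9, and to between 6 and 11 without any 1 of 11 other mice, PBS 2, 3, 5, 9, 10 or 11 or RGLS4326 3, 6, 8, 10 or 13.

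**Figure D4:**
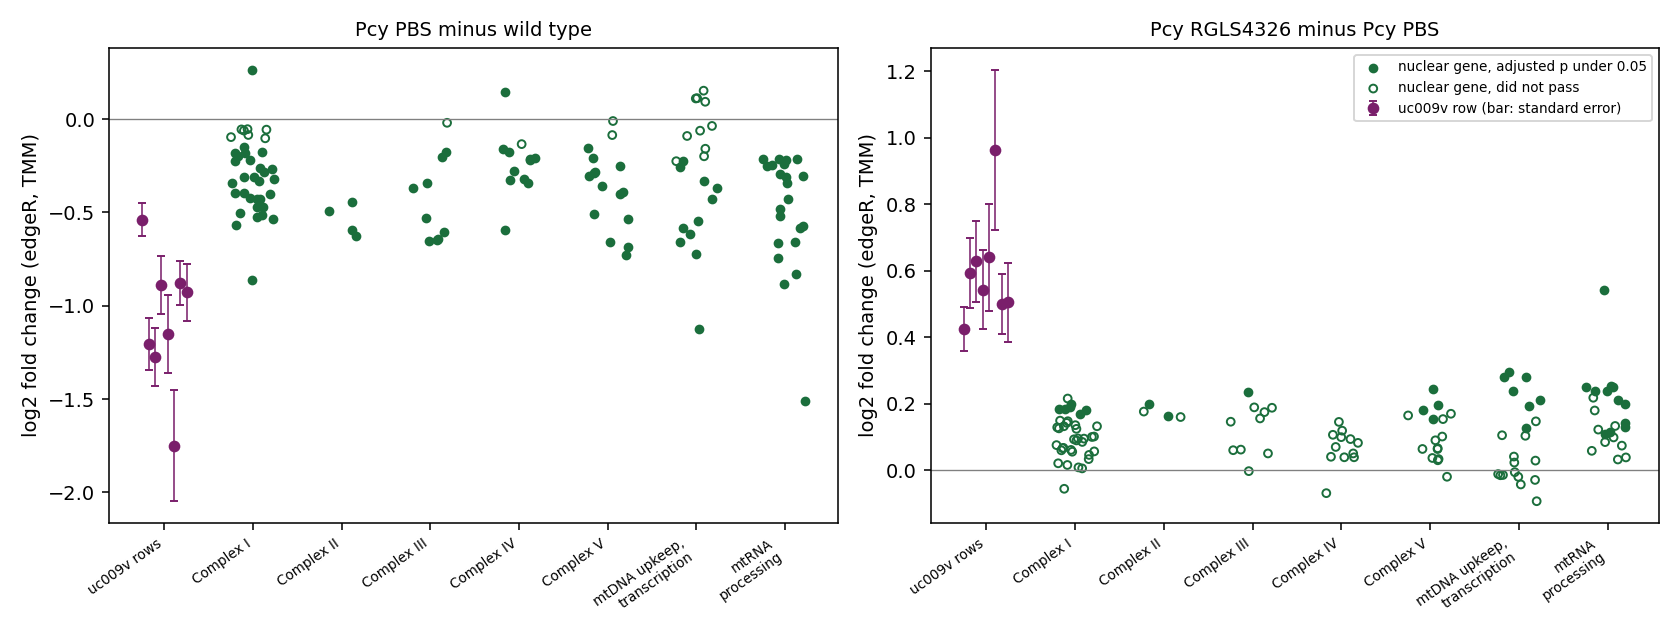
Log2 fold changes (edgeR, TMM; vertical axes differ between panels) of the 8 uc009v rows, with standard errors, and of nuclear genes of the 5 respiratory chain complexes and of mitochondrial genome expression, with filled points for an adjusted p under 0.05. The uc009v rows lie further from 0 than the median nuclear gene in both panels; on plain library totals the nuclear genes split between higher and lower in both comparisons (21 lower and 29 higher in PBS, 3 lower and 1 higher in RGLS4326 for the respiratory chain).

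Set against the nuclear respiratory chain of the same library, which needs no scaling, the uc009v rows differed by group. The sum of the 8 rows was 3.06 times the summed CPM of the 79 nuclear genes in wild type (2.86 to 3.25), 2.13 times with PBS (1.45 to 2.91) and 2.84 times with RGLS4326 (2.32 to 3.35). Of the 12 PBS-treated mice, 11 lay below every wild-type mouse, and of the 14 RGLS4326-treated mice, 7 lay above every PBS-treated mouse. Within the series, the ratio of RGLS4326 to PBS was 1.30, 1.38 and 1.32. Within PBS-treated and within RGLS4326-treated mice, the uc009v sum correlated with the respiratory chain sum (Pearson's r 0.64 over 12 mice and 0.68 over 14). It correlated more closely with the summed CPM of the 22 genes of mitochondrial RNA processing (0.95 and 0.90). The 2 values were −0.07 and 0.48 over the 5 wild-type mice, and 0.61 and 0.91 over 13 RGLS4326-treated mice without mouse 9. Lactb2 alone gave 224 of 1137 CPM of the processing sum with PBS and 326 of 1345 CPM with RGLS4326. The values thus weight abundant genes and do not describe each of the 22. These sums share libraries and scaling, and the values are descriptive.

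Proximal tubule markers had the same order of groups as the uc009v rows. Of 15 proximal tubule markers, 15 were lower in PBS than in wild type on TMM and on plain totals, among them Slc22a6 and Slc22a12, transporters of organic anions and urate, at −1.25 (SE 0.130) and −1.27 (SE 0.133). Their summed level was 33468 to 37630.4 CPM in wild type, 10415 to 20454 CPM with PBS and 14330.2 to 34014 CPM with RGLS4326, or to 23460 CPM without mouse 9. Of the 15, 5 were higher in RGLS4326 than in PBS in edgeR, where 9.15% of all rows were, and 11 were in DESeq2, where 12.4% were, including Hnf4a, a transcription factor of the proximal tubule, at 0.35 (SE 0.0931, adjusted p = 0.0213). The count of 5 came to 4 on plain totals, to 3 without RGLS4326-treated mouse 9, to 1 without PBS 3, 5, 9 or 10, to 3 without PBS 2 or 11 or RGLS4326 3, 6, 7, 8, 10 or 13, and to between 8 and 13 without PBS 1, 4, 7, 8 or 12 or RGLS4326 1, 2, 5, 11 or 12. The uc009v sum correlated with this marker sum within the Pcy/CD1 groups (r 0.89 over 12 PBS-treated mice, 0.85 over 14 RGLS4326-treated mice and 0.89 over 13 without mouse 9), whereas r was −0.56 over the 5 wild-type mice. In these bulk libraries, fewer cells of a type and less RNA per cell cannot be told apart.

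The uc009v rows and the proximal tubule markers nevertheless did not keep 1 ratio. The uc009v sum was 2.62 times the marker sum in wild type (2.36 to 2.84), 3.05 times with PBS (2.37 to 3.57) and 3.49 times with RGLS4326 (2.46 to 4.03), or 3.57 times without mouse 9 (3.05 to 4.03). Thus the ratio to these markers was higher in the Pcy/CD1 groups, where the ratio to the respiratory chain was lower. Of the 12 PBS-treated mice, 9 lay above every wild-type mouse, and of the 14 RGLS4326-treated mice, 13 did.

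Markers of other cells differed in both directions. Against wild type, where 37.7% of all rows tested were higher in PBS and 36.6% lower, PBS had 9 of 9 macrophage markers higher (summed level 188 to 226 CPM in wild type, 531 to 901 CPM with PBS, 202 to 1100.2 CPM with RGLS4326, or from 372 CPM without mouse 9), 9 of 9 lymphocyte markers, 7 of 8 fibroblast markers and 10 of 10 markers of tubular injury. Collecting duct markers were split, with 7 of 9 higher and 2 lower, the latter being the anion exchangers Slc4a1 at −0.96 (SE 0.169) and Slc26a4 at −0.38 (SE 0.129), named after their values were seen; on plain totals 7 were higher and 1 lower. Of 8 markers of the thick ascending limb and distal tubule, 5 were lower, among them Egf, which encodes epidermal growth factor, at −1.18 (SE 0.192), and 1 was higher, Cldn16 at 0.39 (SE 0.140), also named after its value was seen; on plain totals 4 were lower and 3 higher, and on TMM 0 were higher without wild-type mouse 5 and 2 without PBS 1, 3 or 6 or wild type 3. Of 7 endothelial markers, 3 were lower, namely Kdr at −1.05 (SE 0.237), Tek at −0.73 (SE 0.235) and Ehd3 at −0.73 (SE 0.127), and 0 were higher on TMM in edgeR, in DESeq2 or at an unadjusted p under 0.05, whereas on plain totals 2 were lower and 1 higher. Of 5 podocyte markers, 2 were higher, Wt1 at 1.081 (SE 0.218) and Synpo at 0.95 (SE 0.170), and 3 were on plain totals. Of 7 red blood cell markers, 4 were at 0 in all mice and 1 could be tested, Alas2, the first enzyme of haem synthesis in red cells, which read 5.80 CPM in wild type, 0.851 CPM with PBS and 1.42 CPM with RGLS4326, at −2.76 (SE 0.391) for PBS against wild type.

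Between RGLS4326 and PBS, where 6.66% of all rows were lower and 9.15% higher, 5 of 9 collecting duct markers were lower, among them Scnn1b, a subunit of the epithelial sodium channel, at −0.41 (SE 0.0900, adjusted p = 0.00989), as were 7 on plain totals. Of 8 distal markers, 2 were higher, Pvalb at 1.27 (SE 0.418, adjusted p = 0.0400) and Calb1, a calcium-binding protein, at 0.43 (SE 0.149, adjusted p = 0.0475), and both calls rested on RGLS4326-treated mouse 9. Without it 0 passed, with Pvalb at 0.42 (SE 0.204, adjusted p = 0.151) and Calb1 at 0.31 (SE 0.121, adjusted p = 0.0883). Pvalb missed the threshold in DESeq2 too, at 0.42 (adjusted p = 0.107). On plain totals 1 distal marker was higher and 2 were lower, 0 passed without PBS 2, 3, 5, 9, 10 or 11 or RGLS4326 3, 6, 8, 10 or 13, 1 without PBS 6 or RGLS4326 1, 4 or 7, and 3 or 4 without PBS 4, 8 or 12 or RGLS4326 2, 11 or 14. For the macrophage, lymphocyte, fibroblast and injury lists 0 passed in edgeR on TMM, whereas on plain totals, where 27.2% of all rows were lower and 3.63% higher, 1 of 9 macrophage, 2 of 9 lymphocyte and 3 of 10 injury markers were lower. On TMM, 1 macrophage marker, Emr1, passed as higher without RGLS4326-treated mouse 9, 1 lymphocyte marker as lower without PBS 8 or 12 or RGLS4326 2, 12 or 14, and 1 to 3 injury markers as lower without PBS 1, 4, 7, 8 or 12 or RGLS4326 2, 4, 5 or 11. At an unadjusted p under 0.05, 1 macrophage gene was higher, 1 lymphocyte gene was higher and 2 were lower, 0 fibroblast genes differed and 4 injury genes were lower, and DESeq2 called 1 lymphocyte gene and 2 injury genes lower. For the endothelial and podocyte lists and Alas2, 0 passed on TMM in edgeR or in DESeq2, 1 podocyte gene was lower on plain totals and without RGLS4326-treated mouse 2, and 1 podocyte gene lower and Alas2 higher had an unadjusted p under 0.05.

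Of 5 nuclear or non-polyadenylated RNAs, 2 could be tested. Malat1, a long noncoding RNA kept in the nucleus, had the same order of groups as the uc009v rows on TMM, at 664 to 860 CPM in wild type, 346 to 588 CPM with PBS and 445 to 711 CPM with RGLS4326. Its log2 fold change was −0.57 (SE 0.0978, adjusted p = 7.0e-06) for PBS against wild type and 0.29 (SE 0.0743, adjusted p = 0.0186) for RGLS4326 against PBS, whereas on plain totals it was −0.20 (adjusted p = 0.0534) and 0.17 (adjusted p = 0.0649). Neat1, another nuclear RNA, read −0.04 (SE 0.106, adjusted p = 0.712) and 0.17 (SE 0.0789, adjusted p = 0.121) on TMM, and was higher in PBS than in wild type on plain totals, at 0.32 (adjusted p = 0.00936). The part of cell makeup, and of library or RNA makeup, in the uc009v values was not tested.

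**Figure D5:**
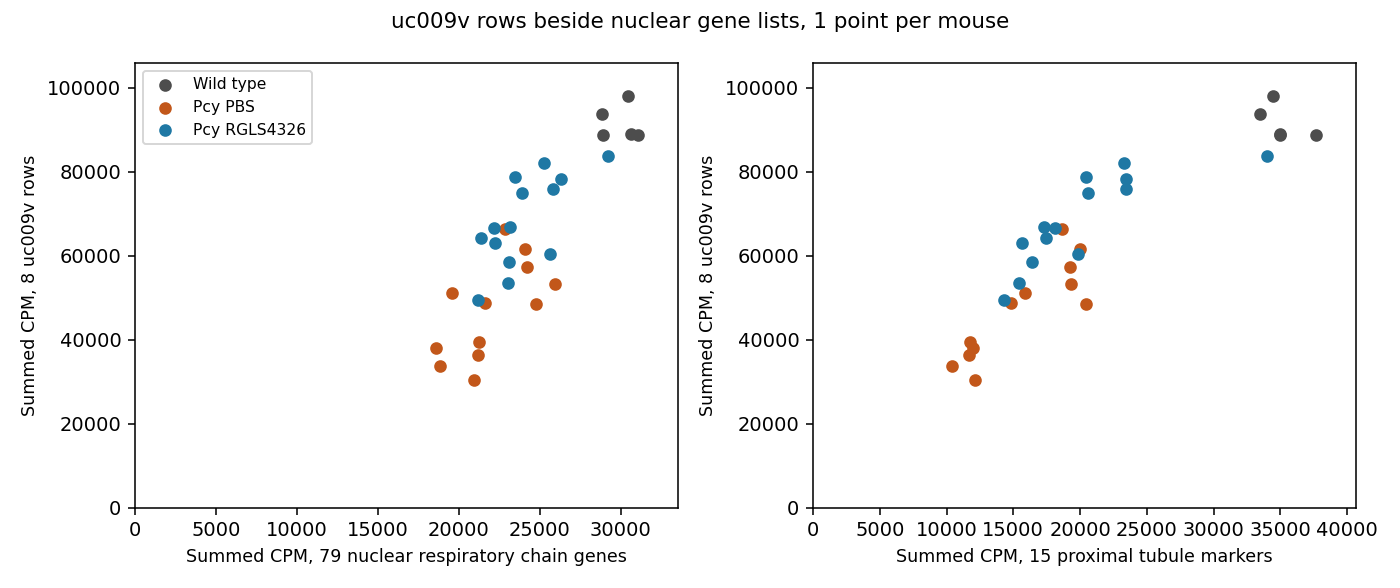
Summed CPM of the 8 uc009v rows (vertical axes) against the summed CPM of 79 nuclear respiratory chain genes (left) and of 15 proximal tubule markers (right), 1 point per mouse, coloured by group. The 5 wild-type mice stand at the upper right of both panels, and RGLS4326-treated mouse 9, at 34014 CPM of proximal tubule markers and 83689 CPM of uc009v rows, lies next to them.

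RGLS4326-treated mouse 9 had the highest uc009v sum and the highest proximal tubule sum of its group. Without it, the log2 fold change of RGLS4326 against PBS was 0.53 for uc009vey.1, 0.47 for uc009vfc.1, 0.56 for uc009vew.1, 0.47 for uc009vfb.1 and 0.60 for uc009vex.2. The uc009v sum was 67098 ± 10245 CPM (mean ± SD, n = 13), which on TMM stood 42.6% over PBS and differed from wild type by −26.8%. The share of row counts on the 10 rows, which needs no scaling, stood 33.8% over PBS and differed from wild type by −12.5%. As before, 8 of 10 uc rows were higher than in PBS, where 4.66% of all rows were higher and 3.48% lower, and 5 of 10 exceeded 0.5 on the log2 scale, where 0.349% did. Against wild type 8 of 10 were lower, where 33.5% of all rows were, and 4 of 10 were lower without overlap, where 17.2% were.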

How the data were processed

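Kidney mRNA libraries (TruSeq Stranded, paired reads of 75 bp) had been trimmed with Trim Galore, mapped to GRCm38 with STAR and counted with HTSeq 0.6.1 by the authors; the annotation and strand setting are not given in the sources used here. The deposited values are raw counts, 1 per row and mouse, for 23509 rows and 5 HTSeq summary rows, which were left out of totals; 8.39% to 10.1% of reads had no feature and 17.8% to 21.2% were not unique. Reads that map to more than 1 place were not counted, which can lower rows with near-identical copies elsewhere.

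Groups came from the labels. Rows passing filterByExpr (15185) were fitted in edgeR 4.0.16 (R 4.3.3) with TMM and a quasi-likelihood model of 3 groups over 31 mice, and p-values were Benjamini-Hochberg adjusted over all rows. The standard error was taken as the size of the log2 fold change over the root of F, an approximation. The steps were tested on simulated counts. The uc rows and the gene lists were chosen with earlier results of these data known. Named genes are the uc rows, their neighbours in rank, the 3 rows most like each listed row (mean of at least 5 CPM), and in each list up to 3 genes with the smallest p per comparison. Python 3.11.15 (pandas 2.3.3, scipy 1.17.1, matplotlib 3.10.9) did the rest. Alternatives were DESeq2 1.42.0, other scalings, no filter, 2 groups only, index series as covariate or alone, a replicate block and leaving out each mouse. The closest pair of libraries, wild-type mice 3 and 4, had a chi-square per row of 2.69 over 11799 rows, above the value of about 1 that counting noise gives, and both were kept. The next closest wild-type pair had 16.0, and the closest pairs with PBS and with RGLS4326 had 4.91 and 7.02. Why mice 3 and 4 were this alike was not tested.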

Additional observations from a re-analysis of the deposited data

How the results depend on the processing

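All 10 uc rows were called lower in PBS than in wild type under DESeq2, where 36.6% of all rows were. They were also called lower on plain library totals, where 15.6% of all rows were. The call held for 10 of 10 without the filter, with index series as covariate and without any 1 mouse, and for 9 in the first series alone. The third series holds 1 wild-type mouse, assumed to vary like the other groups, so no count of these rows is given for it. For settings other than DESeq2 and plain totals, the replicate block below included, no share of all rows stands beside the count. Because the rows were chosen with these contrasts known, nothing is read from their counts. The count of 8 higher in RGLS4326 was 8 to 9 without any 1 mouse and 0 in each series alone, where fewer mice were tested. Of 630 fold changes of single uc rows over these settings 1 reversed, uc012hdk.1 for RGLS4326 against PBS in the first series, at −0.016, and 29 moved by more than the standard error of the fold. Leaving out 1 mouse gave differences in share of −2.81 to −2.51 points for PBS against wild type and 1.61 to 1.90 for RGLS4326 against PBS.

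Counts of nuclear genes moved more. Respiratory chain genes lower in PBS numbered 34 in the second series, 22 in the third and 21 on plain totals; those higher in PBS (2) numbered 0 in the first and second series, 1 in the third, 29 on plain totals and 1 to 2 without any 1 mouse (1 without PBS 9 or wild type 3, 4 or 5). Genes of mitochondrial genome expression lower in PBS numbered 19 in the third series and 15 on plain totals; those higher (0) numbered 1 in the second series, 1 with TMM without the uc rows, 1 with only the 2 groups, 13 on plain totals and 0 to 2 without any 1 mouse (1 without PBS 2 or 12 or wild type 1 or 5, 2 without PBS 4).

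For RGLS4326 against PBS, the 13 respiratory chain genes became 0 in each series alone, 5 without the filter, 4 with only the 2 groups and 1 on plain totals (3 lower); the 19 expression genes became 0 in each series, 8 with only the 2 groups and 4 on plain totals (5 lower). The 13 ranged from 1 to 25 without any 1 mouse: 1 without PBS 2, 5, 9 or 10 or RGLS4326 8, 2 without RGLS4326 9, 3 without PBS 3 or RGLS4326 13, 4 without RGLS4326 6 or 10, 5 without PBS 6, 6 without PBS 11 or RGLS4326 3, and 20, 21, 22 and 25 without PBS 12, PBS 1, RGLS4326 2 and PBS 7. The 19 ranged from 6 to 23: 6 without PBS 10, 7 without PBS 3, 5 or 9 or RGLS4326 8, 8 without PBS 2 or RGLS4326 6, 9 or 13, 9 without RGLS4326 10, 10 without RGLS4326 3 and 11 without PBS 11. Plain totals also moved the share of calls that are higher from 50.7% to 80.0% for PBS against wild type and from 57.9% to 11.8% for RGLS4326 against PBS.

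Same-numbered mice are different animals. The correlation of their deviations averaged 0.10 over 5 pairs of PBS and wild type, 2 of which matched best with their own number, and −0.09 over 12 pairs of RGLS4326 and PBS, 1 of which did, so the numbers do not pair the mice. With a replicate block, 1 uc row, 0 respiratory chain genes and 0 expression genes passed as higher in RGLS4326, and 1 respiratory chain gene as higher in PBS. Beyond the settings named, the cause of these moves was not tested. The scarce rows uc012hdk.1, uc009vfa.1 and uc009vez.1 rest on few reads, so counting error limits them.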
